A study of Mus musculus with 6 samples.

Results

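Interferon-stimulated genes are the genes that cells switch on when interferon binds its receptor. The set described here has 34 of them and leaves out the OAS family. It was chosen by gene symbol and not by a cut on the measured values, but with earlier results of these data known. All 34 symbols were found among the 54532 gene entries of the deposited table. The members were read in 4 roles: 6 nucleic acid sensors, 4 transcription factors, 4 guanylate-binding proteins and 20 effectors.

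The cells were RAW264.7, a macrophage line from a BALB/c mouse tumour, cultured for 3 d. C/D cells grew with a hydrogel composite of GelMA, PEDOT:PSS and PLLA/PDA and received low-frequency ultrasound (48 kHz, 5 min), the dynamic condition. Gel/S cells, the control, grew with GelMA alone and without ultrasound, the static condition. GelMA is gelatin modified with methacryloyl groups, PEDOT:PSS is a conducting polymer, and PLLA/PDA joins a polyester with polydopamine. The study has 3 libraries in each group, and the comparison asks how the dynamic composite and the static plain gel differ in their effect on macrophage mRNA. Material and ultrasound changed together, so their effects cannot be told apart. The deposited columns name the treated libraries only by the letters US, read here as ultrasound and so as C/D, and every direction rests on that reading. The labels do not say that replicates were separate cultures, so p-values measure only the spread between these libraries, which may be technical.

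Type I interferons (interferon beta and the interferon alphas) bind a receptor made of Ifnar1 and Ifnar2. The kinases Jak1 and Tyk2 then phosphorylate Stat2, which enters the factor ISGF3 together with Irf9. ISGF3 binds the interferon-stimulated response element (ISRE) of its target genes, while responses to interferon gamma run through the gamma-activated site (GAS). Macrophages hold a low tonic level of many of these genes and raise them steeply when viral nucleic acid or bacterial lipid triggers interferon synthesis.

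The promoters of the set show this wiring in their letters, and the windows below belong to members that moved, did not move, or were close to silent in these libraries. RefSeq sequence of build GRCm38.p6 was given for 25 of the 34 members, in 34 windows that run from 250 bases before a start site to 50 after it. The sequence is that of the reference mouse, not one read from RAW264.7 cells. ISRE was searched on both strands as GAAA followed, after 2 bases of any kind, by GAAA (TTTC, 2 bases, TTTC on the other strand). GAS was searched as TTCNNNGAA, which reads the same on both strands. Matches may overlap each other, and the GAS match of Bst2 overlaps its first ISRE match. At least 1 ISRE match was found for 15 of the 25 members, in 16 of their 34 windows, against 3.44% of all 32851 promoter windows. GAS matches were found for 9 of the 25, in 9 windows, against 8.30% of all windows. A match is a description of the letters and does not show that a factor binds there. Nor does the lack of a match show that a gene lacks the element, which may depart from the strict pattern or lie outside the window. Capitals mark the match whose position is given, each line is read 5′ to 3′ on the gene's strand, and distances count from the start site at 0.

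The Isg15 promoter has a run of 3 overlapping ISRE matches from base −78 on, and the 250 bases before its start (chr4:156200819-156201068, minus strand) are shown because Isg15 was among the members that rose.
Isg15: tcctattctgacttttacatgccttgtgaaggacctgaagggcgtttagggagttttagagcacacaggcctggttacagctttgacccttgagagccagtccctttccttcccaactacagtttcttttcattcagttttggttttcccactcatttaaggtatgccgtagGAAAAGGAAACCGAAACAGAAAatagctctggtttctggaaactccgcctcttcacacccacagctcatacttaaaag

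Shorter ISRE windows follow for Bst2, which rose (from −130, chr8:71537578-71537617, minus strand; its second ISRE match, from −124, and its GAS match, from −136, overlap the capitals and lie partly in lower case), Stat2, which was measured and did not pass the test (from −222, chr10:128270261-128270300, plus strand), and 4 members that were close to silent. These are Ifit1 (from −104, chr19:34640770-34640809, plus strand), Ifit3 (from −156, chr19:34583358-34583397, plus strand), Rsad2 (from −120, chr12:26456548-26456587, minus strand) and Gbp2 (from −59, chr3:142620589-142620628, plus strand).
Bst2: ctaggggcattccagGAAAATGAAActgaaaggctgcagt
Stat2: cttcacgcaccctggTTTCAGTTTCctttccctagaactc
Ifit1: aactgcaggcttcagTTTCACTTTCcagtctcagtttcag
Ifit3: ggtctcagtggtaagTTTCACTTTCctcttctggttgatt
Rsad2: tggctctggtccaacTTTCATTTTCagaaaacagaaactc
Gbp2: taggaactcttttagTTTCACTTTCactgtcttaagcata

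Isg20 and Ifi35, which rose, and Irf1, Ifit2 and Adar, which did not pass, had a GAS match and no ISRE match in their windows. Those of Isg20 and Irf1 are shown. The Isg20 match starts at −73 of 1 of its 3 listed start sites (chr7:78913336-78913374, plus strand), and that of Irf1 at −90 of 1 of its 2 (chr11:53769909-53769947, plus strand).
Isg20: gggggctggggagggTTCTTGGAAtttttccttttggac
Irf1: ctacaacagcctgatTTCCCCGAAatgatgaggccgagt

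**Figure D1:**
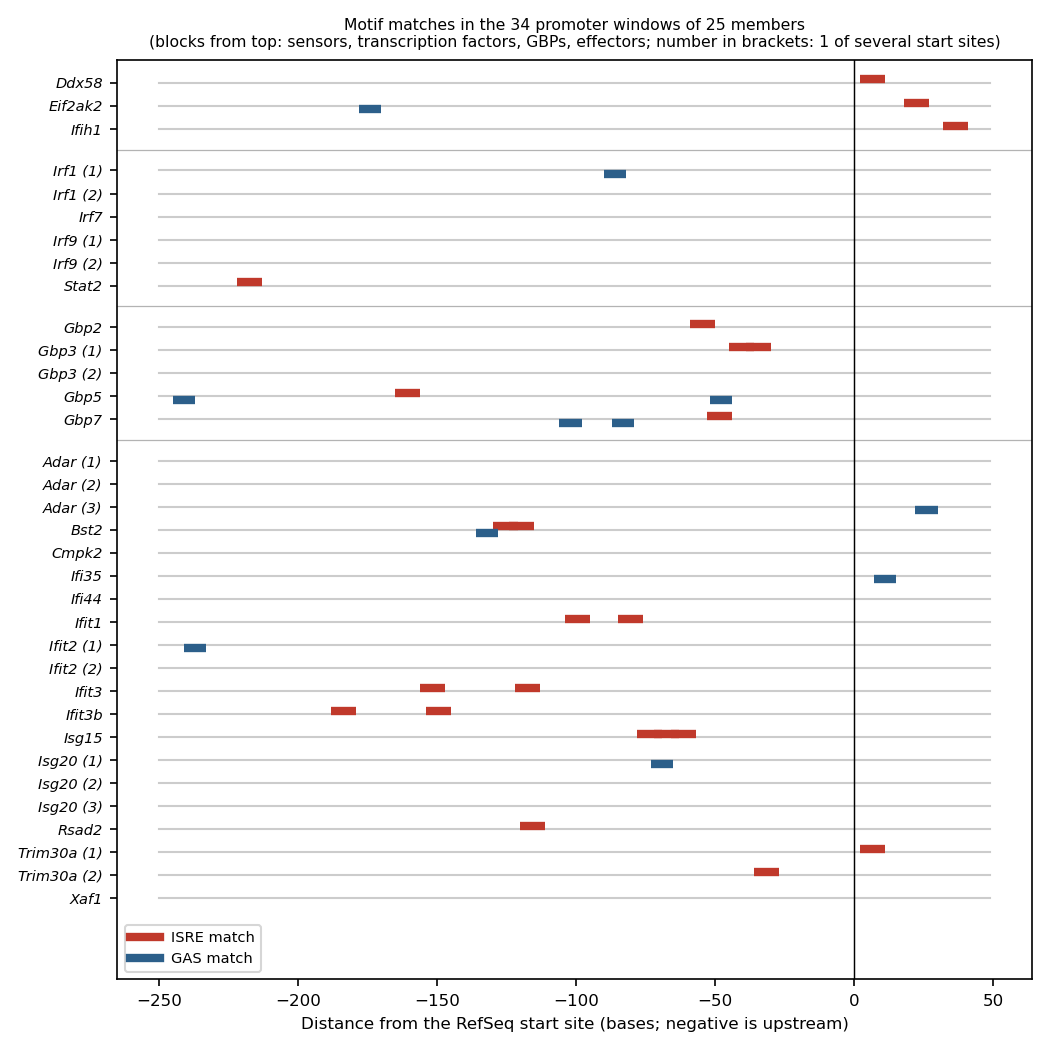
Positions of ISRE and GAS matches in the 34 promoter windows of 25 members, with the distance from the start site in bases on the x axis and 1 line per window. ISRE matches fall in 16 windows, and those of Ddx58, Eif2ak2 and Ifih1 and 1 of the 2 of Trim30a lie after the start site.

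An ISRE match did not go with a high level here. Of the 15 members with a match, 8 were below the mean of 1 FPKM (fragments per kilobase, scaled to library size, the authors' measure of level) that was required for testing, and 2 of the 7 tested rose. Of the 10 members without a match, 1 was below it and 2 of the 9 tested rose. Over all genes tested, 13.1% rose. The other 9 members, Dhx58, Ifi204, Mx1, Mx2, Parp14, Parp9, Rtp4, Usp18 and Zbp1, are named only.

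The libraries held 12818831 to 15802627 counts in C/D and 15579679 to 16525699 counts in Gel/S. Mitochondrial transcripts took 9.17% to 10.4% of the counts in C/D and 5.59% to 9.02% in Gel/S. Macrophage identity was clear in both groups: 11 of 12 macrophage markers were measured at or above 1 FPKM, and their summed level was 13180 to 13300 FPKM in C/D and 15470 to 15560 FPKM in Gel/S, most of it Lyz2. Of the 11, none rose and 1 fell (9.09%), against 13.1% and 13.9% of all genes tested. The 1 that fell was Csf1r, the receptor for macrophage growth factor. In FPKM, all C/D libraries were below all Gel/S libraries for 3 (Csf1r, Lyz2 and Cd14), against 27.1% of all genes tested. They were above for 2 (Fcgr3 and Tyrobp), against 19.1%. The part of these differences in the results below was not tested. Of 14 stromal and osteoblast markers none reached 1 FPKM and 7 were at 0 in every library, among them Col1a2, Col3a1 and Dcn. The 10 T, B and NK cell markers and the 7 endothelial and epithelial markers also stayed below 1 FPKM, with Trac, Ms4a1, Epcam and Kdr at 0. Of 8 dendritic cell and neutrophil markers, Siglech alone was tested, and it fell. In bulk RNA, fewer cells that express a gene and less of its RNA per cell cannot be told apart.

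A small group of effectors rose in C/D, and no member fell. Of the 34 members, 22 were tested. Isg20, Rtp4, Isg15, Ifi35, Bst2 and Usp18 rose and the other 16 did not pass (edgeR quasi-likelihood test, Benjamini-Hochberg adjusted p under 0.05). The rise was about 2-fold for Isg20 (2.06), Rtp4 (1.90) and Isg15 (1.74), and smaller for Ifi35 (1.31), Bst2 (1.27) and Usp18 (1.25). Over all 11708 genes tested, 13.1% rose and 13.9% fell, together 27.0%. On log2(TPM + 1), which moved the median of all genes to −0.12, limma called 633 genes risen and 1510 fallen, against 1532 and 1631 in edgeR. The members' share called in either direction, 27.3%, was thus close to that of all genes, while all 6 calls pointed to C/D. The median log2 fold change was 0.15 over the 22 tested members and 0.01 over all tested genes. All C/D libraries were above all Gel/S libraries in FPKM for those same 6 among the tested members, against 19.1% of all genes tested. All C/D libraries were below all Gel/S libraries for 1 tested member, Trim30a, by a very small margin, against 27.1% of all genes. The 22 tested members include 8 at an unadjusted p under 0.05 in edgeR, the 6 that rose plus Irf1 and Irf7. The share of all genes at that unadjusted threshold is not given here, so the 8 are not read as a result about the set. The number of risen members depended on single libraries. It was 3 when C/D 1 or C/D 2 was dropped, 2 when C/D 3 or Gel/S 3 was dropped and 4 on dropping Gel/S 1. On dropping Gel/S 2, 9 members rose and 2 fell. Calls over all 11708 genes, in either direction, moved too. They were 4078 without Gel/S 2 and 3070 without Gel/S 1, against 3163 with all libraries. Without C/D 1, C/D 2 or C/D 3 they were 1812, 1804 and 1960, and without Gel/S 3 they were 1892.

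**Figure D2:**
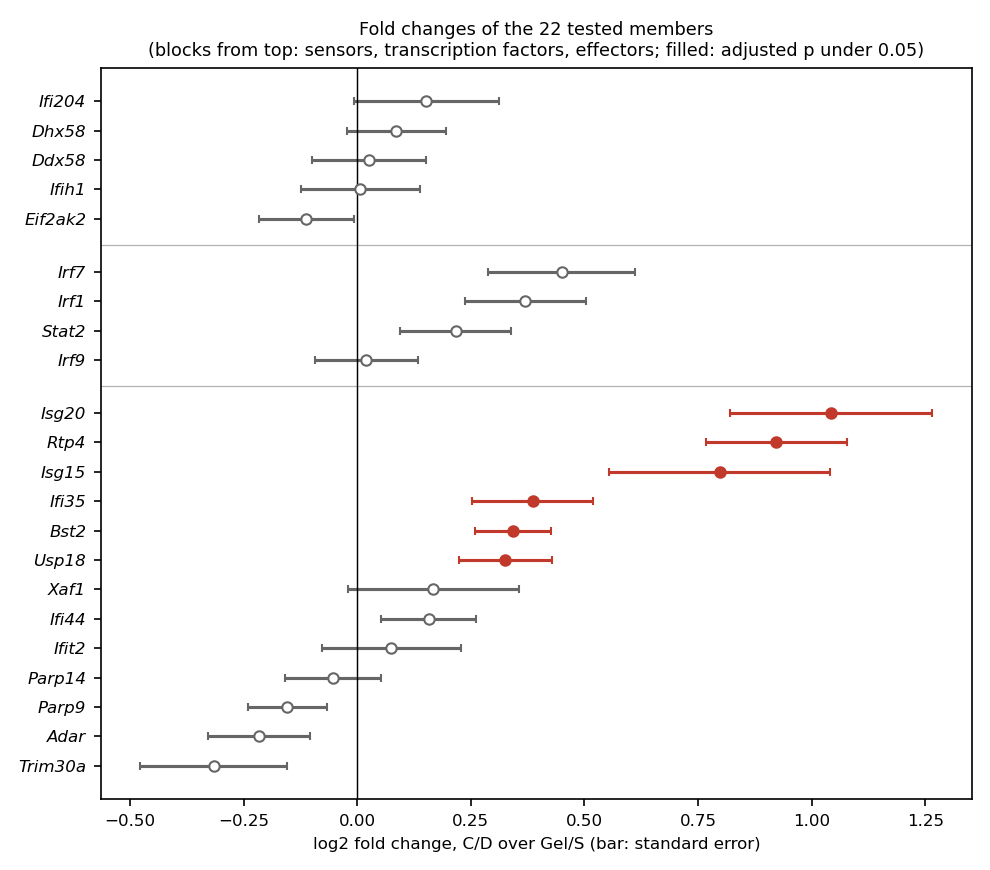
The log2 fold change of C/D over Gel/S on the x axis for each of the 22 tested members, with its standard error as the bar. Filled points mark the 6 effectors with an adjusted p under 0.05, from 0.33 for Usp18 to 1.04 for Isg20, and open points the 16 that did not pass.

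The members spanned a wide range of levels. Bst2 stood far above the rest with a mean of 274 FPKM over the 6 libraries, while the next highest, Ifi35, had 16.3 FPKM. The other tested members reached down to 2.20 FPKM, for Xaf1. The 12 members below the limit had means of 0.00801 to 0.721 FPKM. They were Zbp1, all 4 guanylate-binding proteins, Ifit1, Ifit3, Ifit3b, Rsad2, Mx1, Mx2 and Cmpk2, and these include genes widely used as markers of an interferon response. When they were tested without the limit, 0 of the 12 passed in edgeR, with adjusted p from 0.139 (Mx1) to 0.982 (Ifit3b). Over all genes, 3977 of 23858 passed in that setting. That share takes in well-measured genes, and the share among genes below 1 FPKM is not given here. In the authors' deposited table, 3 of the 34 members had an adjusted p under 0.05 with C/D higher (Isg20, Rtp4 and Bst2), against 5.95% of its genes, and 0 with C/D lower, against 8.94%.

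**Figure D3:**
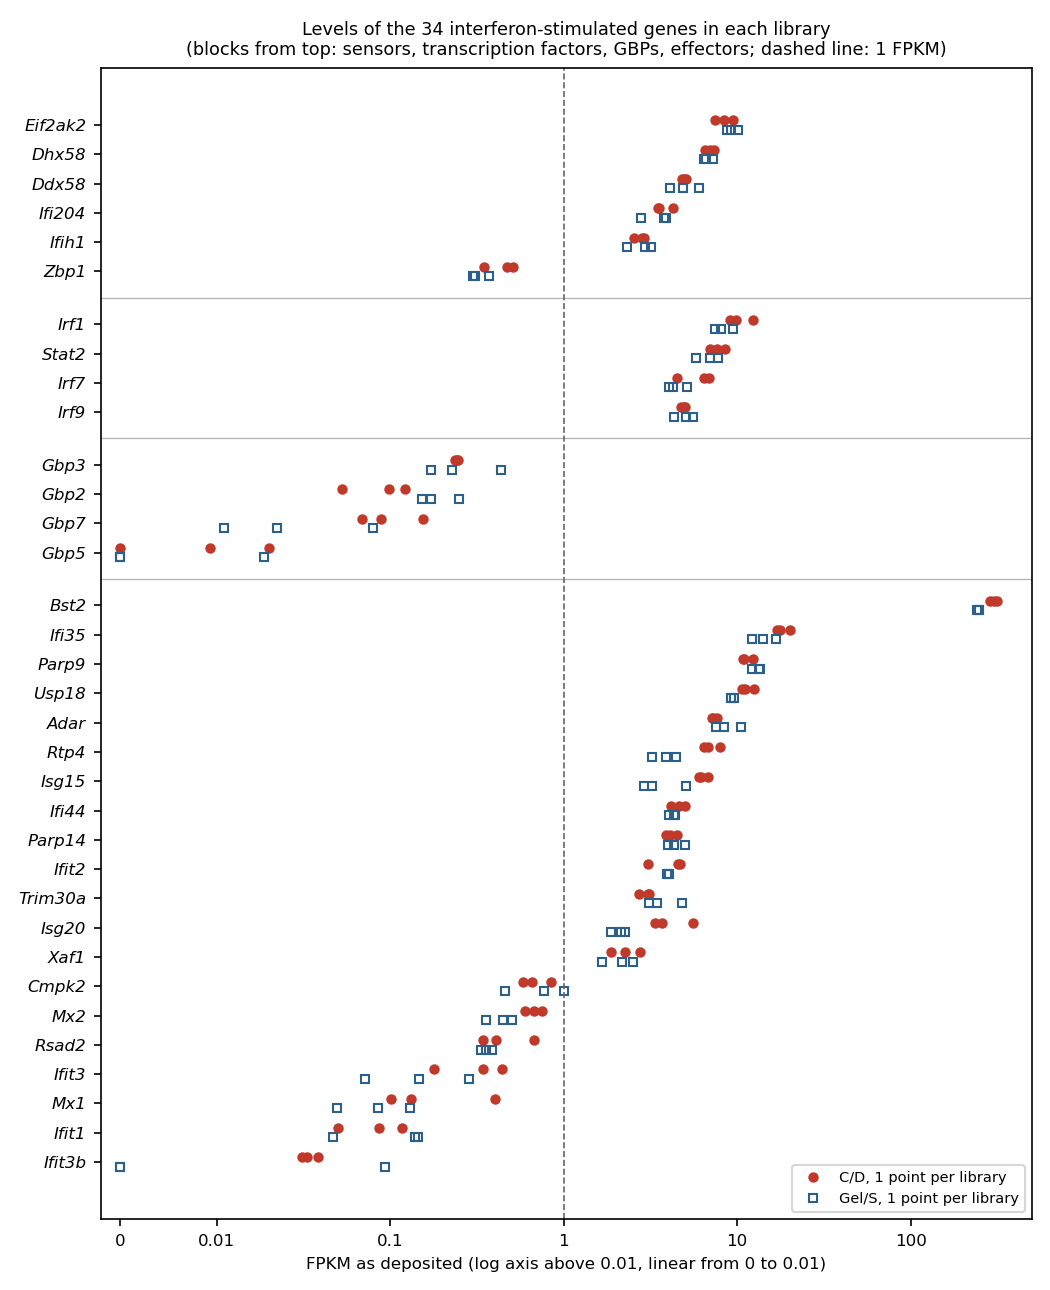
FPKM of each of the 34 members in each library, on an axis that is logarithmic above 0.01 and linear below it, with C/D points drawn above Gel/S points in each row. The dashed line marks 1 FPKM, the mean over libraries that the 22 tested members reached and the 12 others did not. A single library can cross it, as Gel/S 1 does for untested Cmpk2 (1.007 FPKM). Bst2 is the farthest to the right.

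None of the 5 tested sensors passed, with log2 fold changes of −0.11 to 0.15, against 27.0% of all genes tested. With only 5 genes, a count of 0 cannot be set apart from that share. Ifih1 (MDA5, a sensor of long duplex RNA, chromosome 2, 62595798 to 62646255, GRCm38) had 2.89, 2.53 and 2.83 FPKM in C/D and 2.94, 2.31 and 3.21 FPKM in Gel/S. The C/D values lie inside the range of Gel/S. Ddx58 (RIG-I, which reads triphosphate ends of viral RNA) had 5.08, 4.94 and 4.80 FPKM in C/D and 6.04, 4.10 and 4.88 FPKM in Gel/S, again within the Gel/S range. Dhx58 (LGP2, a partner of both) had 7.40, 6.56 and 7.01 FPKM in C/D and 6.62, 7.29 and 6.41 FPKM in Gel/S, with overlap.

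Ifi204 and Eif2ak2 had the smallest p-values among the sensors. Ifi204, a mouse relative of the human DNA sensor IFI16, had 4.30, 3.51 and 3.53 FPKM in C/D and 2.79, 3.79 and 3.89 FPKM in Gel/S (log2 fold change 0.15, SE 0.160, edgeR adjusted p = 0.497). It shares 20.02% of its 50-base words with other genes, chiefly Ifi211, so the authors' counting may have split its reads. Eif2ak2 (PKR, a kinase that halts translation on duplex RNA) had 8.35, 7.48 and 9.43 FPKM in C/D and 10.2, 8.71 and 9.25 FPKM in Gel/S (log2 fold change −0.11, SE 0.104, edgeR adjusted p = 0.442). Its groups overlapped too. Zbp1, a sensor of Z-form nucleic acid, was not tested, at 0.349 to 0.511 FPKM in C/D and 0.299 to 0.372 FPKM in Gel/S.

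None of the 4 transcription factors passed, against 27.0% of all genes tested, and Irf7 and Irf1 came closest. A list of 4 is likewise too short to set apart from that share. Irf7, the main driver of interferon alpha genes (chromosome 7, 141262706 to 141266481), had 6.88, 4.53 and 6.46 FPKM in C/D and 4.29, 5.12 and 4.02 FPKM in Gel/S (log2 fold change 0.45, SE 0.162, edgeR adjusted p = 0.0579). C/D 2 lay inside the Gel/S range, and without that library the log2 fold change was 0.62 with an edgeR adjusted p of 0.0196. Without Gel/S 2 it was 0.56 (adjusted p = 0.0173). Irf1, an activator of interferon-gamma responses and of the guanylate-binding proteins (chromosome 11, 53770014 to 53778374), had 12.3, 9.88 and 9.13 FPKM in C/D and 7.41, 9.45 and 8.06 FPKM in Gel/S (log2 fold change 0.37, SE 0.133, edgeR adjusted p = 0.0566). C/D 1 was the highest library and C/D 3 lay below Gel/S 2. Without Gel/S 2 the adjusted p of Irf1 was 0.0114, and without C/D 1 the log2 fold change was 0.23 (adjusted p = 0.232). DESeq2 called both genes, with adjusted p = 0.0383 for Irf7 and 0.0426 for Irf1.

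Stat2 and Irf9, which act together in ISGF3, did not pass. Stat2 had 8.53, 7.02 and 7.61 FPKM in C/D and 5.81, 7.74 and 6.93 FPKM in Gel/S (log2 fold change 0.22, SE 0.122, edgeR adjusted p = 0.201). It passed in edgeR only without Gel/S 2 (log2 fold change 0.32, adjusted p = 0.0469). Irf9, the DNA-binding subunit, had 4.77, 5.01 and 4.95 FPKM in C/D and 5.07, 4.32 and 5.59 FPKM in Gel/S, with a log2 fold change of 0.02 (edgeR adjusted p = 0.912).

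The guanylate-binding proteins, GTPases that attack the vacuoles of intracellular pathogens and promote inflammasome activation, were close to absent. Gbp3 was the highest with 10, 13 and 12 counts in C/D and 9, 12 and 22 counts in Gel/S. Gbp2 had 4, 4 and 2 counts in C/D and 10, 7 and 6 counts in Gel/S, and Gbp7 had 5, 8 and 13 counts in C/D and 2, 1 and 7 counts in Gel/S. Gbp5 had 0, 1 and 2 counts in C/D and 0, 2 and 0 counts in Gel/S. The C/D counts of Gbp2 were all below its Gel/S counts, and the other 3 genes overlapped. In FPKM, 27.1% of all genes tested had every C/D library below every Gel/S library, a share that leaves out genes this low. None of the 4 passed in edgeR when tested without the limit (adjusted p from 0.178 to 0.850), where 3977 of all 23858 genes passed. That share takes in well-measured genes, so it does not show how often genes with so few reads pass. Gbp7 shares 12.7% of its 50-base words with other genes, mainly a pseudogene. The 4 genes lie together on chromosome 3, and each has an ISRE match in a promoter window.

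Among the effectors, Isg20 and Rtp4 had the firmest rises. Isg20, an exonuclease that degrades viral RNA (chromosome 7, 78913424 to 78920396), had 5.58, 3.68 and 3.36 FPKM in C/D and 1.88, 2.13 and 2.25 FPKM in Gel/S. Every C/D library was above every Gel/S library, and C/D 1 was the highest. The means were 4.21 ± 1.20 and 2.09 ± 0.187 FPKM (SD, n = 3 each). From the counts, edgeR gave a log2 fold change of 1.04 (SE 0.222, adjusted p = 0.00614).

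Rtp4, a chaperone of membrane receptors with antiviral activity (chromosome 16, 23520291 to 23614222), had 6.82, 6.45 and 7.96 FPKM in C/D and 3.23, 4.42 and 3.87 FPKM in Gel/S. The lowest C/D library stood well above the highest Gel/S library. The means were 7.08 ± 0.785 and 3.84 ± 0.596 FPKM (SD, n = 3 each). From the counts, edgeR gave a log2 fold change of 0.92 (SE 0.155, adjusted p = 0.00188). Of its exon bases, 13.9% lie under another transcript of the same strand, so part of its count may belong there. Isg20 and Rtp4 passed in all 13 alternatives run.

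The ISG15 system had both its modifier and its protease among the risen genes. Isg15, a ubiquitin-like protein that is joined to other proteins and also secreted (chromosome 4, 156199424 to 156200818), rested on few reads, 61, 73 and 77 counts in C/D and 39, 62 and 34 counts in Gel/S. In FPKM these were 6.20, 6.005 and 6.77 in C/D and 3.23, 5.08 and 2.89 in Gel/S. The groups did not overlap, and Gel/S 2 came nearest to C/D. The means were 6.33 ± 0.398 and 3.73 ± 1.18 FPKM (SD, n = 3 each). From the counts, edgeR gave a log2 fold change of 0.80 (SE 0.243, adjusted p = 0.0308). The call held without Gel/S 2 (adjusted p = 0.00395, log2 fold change 1.09) but was lost without any other library, the adjusted p in edgeR being 0.0777, 0.0719 and 0.0977 when C/D 1, C/D 2 or C/D 3 was dropped, and 0.0629 or 0.115 on dropping Gel/S 1 or Gel/S 3.

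Usp18, which removes ISG15 from proteins and damps signalling at Ifnar2 (chromosome 6, 121245906 to 121270917), had 12.5, 11.0 and 10.7 FPKM in C/D and 9.65, 9.22 and 9.27 FPKM in Gel/S. The Gel/S libraries were close together and all below C/D. The log2 fold change was 0.33 (SE 0.102, edgeR adjusted p = 0.0337), and it missed the threshold when C/D 1 was dropped (adjusted p = 0.122), likewise C/D 2 (0.0769), C/D 3 (0.0534) or Gel/S 3 (0.111). It also missed it in edgeR without the limit on low levels (adjusted p = 0.108) and in limma on log2(FPKM + 1) (0.0534) and on log2(TPM + 1) (0.244, log2 fold change 0.18). Other enzymes of ISG15 conjugation, chosen after their values were seen, were mixed. Uba7, the activating enzyme, rose, with 12.3, 9.72 and 9.53 FPKM in C/D and 6.48, 7.61 and 7.15 FPKM in Gel/S (log2 fold change 0.61, SE 0.117, edgeR adjusted p = 0.00354). Ube2l6, the conjugating enzyme, had 21.5, 19.4 and 22.7 FPKM in C/D and 18.6, 21.8 and 21.6 FPKM in Gel/S (log2 fold change 0.08, edgeR adjusted p = 0.590). Herc6, the main mouse ligase, was below 1 FPKM in every library.

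Bst2 and Ifi35 rose by smaller amounts. Bst2 (tetherin, which holds budding virus at the cell surface, chromosome 8, 71534255 to 71537456) had 287.5, 302.5 and 316.1 FPKM in C/D and 246.9, 248.0 and 241.1 FPKM in Gel/S. With 3376 counts or more in each library it was the best measured member, and the groups were clearly apart. The log2 fold change was 0.34 (SE 0.0830, edgeR adjusted p = 0.0112), lost by a small margin without C/D 2 (0.0518), C/D 3 (0.0603) or Gel/S 3 (0.0641). In limma on log2(TPM + 1) it did not pass either (log2 fold change 0.21, adjusted p = 0.115).

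Ifi35, a partner of Nmi in innate signalling (chromosome 11, 101448407 to 101458698), had 20.1, 17.6 and 16.9 FPKM in C/D and 12.1, 16.8 and 14.0 FPKM in Gel/S. The groups nearly met, at C/D 3 and Gel/S 2. Its log2 fold change of 0.39 (SE 0.133) passed narrowly (edgeR adjusted p = 0.0495), and the call was lost without each library except Gel/S 2 (highest adjusted p = 0.177, without C/D 1). In limma it did not pass on log2(FPKM + 1) (adjusted p = 0.0865) or log2(TPM + 1) (0.115). An antisense gene, Gm11626, covers 16.8% of its exon bases, and whether counting used strand is not given here.

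The IFIT proteins, which bind foreign RNA, were uneven in level. Ifit2 had 3.05, 4.54 and 4.67 FPKM in C/D and 4.06, 4.04 and 3.93 FPKM in Gel/S. C/D 1 was the lowest library and the other C/D libraries were the highest (log2 fold change 0.08, SE 0.153, edgeR adjusted p = 0.740). Its neighbours on chromosome 19 were far lower: Ifit1 had 3, 5 and 2 counts in C/D and 2, 6 and 6 counts in Gel/S, and Ifit3 had 10, 5 and 9 counts in C/D and 2, 8 and 4 counts in Gel/S. Ifit3b had 1 count in each C/D library and 0, 3 and 0 counts in Gel/S. Ifit3 and Ifit3b share 869 words of 50 bases (51.2% and 45% of all their words are shared), so reads could be split between them, and the ISRE window of Ifit3 shown above is identical in Ifit3b.

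Rsad2 (viperin, which makes a chain-terminating nucleotide) and its neighbour Cmpk2 (a nucleotide kinase) were both below 1 FPKM on average. Rsad2 had 23, 24 and 44 counts in C/D and 23, 27 and 24 counts in Gel/S, and Cmpk2 had 46, 39 and 41 counts in C/D and 67, 31 and 50 counts in Gel/S. Mx1 and Mx2 encode dynamin-like antiviral GTPases, which are defective in most laboratory mouse strains. Mx1 had 5, 8 and 23 counts in C/D and 3, 8 and 5 counts in Gel/S. Mx2, annotated as a polymorphic pseudogene, had 28, 39 and 41 counts in C/D and 29, 26 and 20 counts in Gel/S. In FPKM its C/D libraries were all above its Gel/S libraries (0.596 to 0.754 against 0.356 to 0.502). The same held for 19.1% of all genes tested, a share that leaves out genes this low. Rsad2, Cmpk2, Mx1 and Mx2 did not pass in edgeR when tested without the limit (adjusted p from 0.139 to 0.809).

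The 4 effectors with negative fold changes did not pass either. Trim30a, a mouse ubiquitin ligase that restrains NF-kB signalling, had 2.71, 3.09 and 3.07 FPKM in C/D and 4.84, 3.09 and 3.48 FPKM in Gel/S, so that Gel/S 1 alone stood apart (log2 fold change −0.32, edgeR adjusted p = 0.160). Adar, the enzyme that edits adenosine in duplex RNA, had 7.62, 7.20 and 7.22 FPKM in C/D and 10.6, 7.51 and 8.36 FPKM in Gel/S, again with Gel/S 1 highest (log2 fold change −0.22, edgeR adjusted p = 0.165). Both passed without Gel/S 2 (adjusted p of 0.0418 for Trim30a and 0.0286 for Adar). Adar shares 14.4% of its 50-base words with other genes, mainly Chrnb2 on the opposite strand. The ADP-ribosyltransferases Parp9 (log2 fold change −0.15, edgeR adjusted p = 0.208) and Parp14 (−0.05, 0.731) had overlapping groups. Ifi44 (0.16, edgeR adjusted p = 0.279) and the pro-apoptotic factor Xaf1 (0.17, 0.529) had overlapping groups as well.

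Gene length moved with the call. The 6 risen members have listed lengths of 0.756 kb (Isg15) to 2.79 kb (Usp18), and the 16 others 3.27 kb (Dhx58) to 9.31 kb (Parp14), so the 6 shortest tested members are the 6 that rose. All 6 are effectors, and every tested sensor and factor is 3.27 kb or longer. The contrast of effectors with sensors and factors therefore cannot be told apart from length. Over all tested genes, 15.2% of those under 3 kb and 11.7% of those of 3 kb and over rose, and their median log2 fold changes were 0.12 and −0.05. After removal of the length trend from every library, a step chosen after seeing the data, 5 members rose and 0 fell in edgeR, against 14.2% risen of all genes. These were Isg20 (log2 fold change 0.97, adjusted p = 0.00552), Rtp4 (0.88, 0.000910), Usp18 (0.33, 0.0254), Irf7 (0.50, 0.0307) and Irf1 (0.42, 0.0264). The risen members then included factors as well as effectors. The calls of Isg15 (0.57, 0.0741), Ifi35 (0.30, 0.0577) and Bst2 (0.12, 0.315) were lost.

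**Figure D4:**
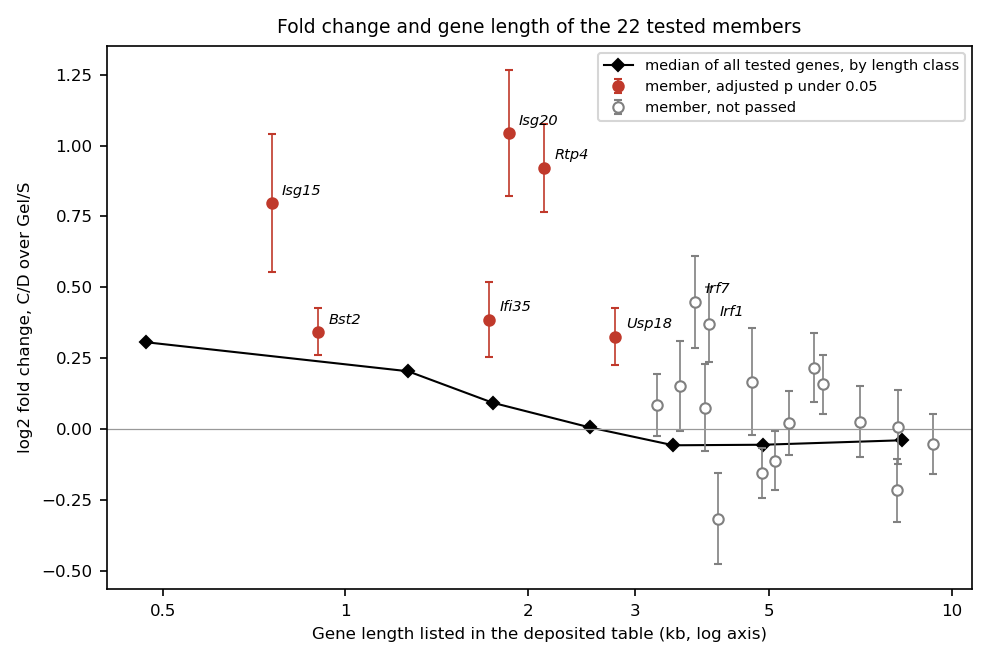
The log2 fold change of C/D over Gel/S (y axis, bars are standard errors) against the listed gene length in kb (log axis) for the 22 tested members, with the median of all tested genes in 7 length classes as diamonds. All 6 filled points lie left of 3 kb, where the diamonds also lie higher, and Bst2 is the closest of them to the diamonds.

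The interferon genes themselves were at or close to 0. Of 9 listed interferon genes, 2 had any count and the summed count over all 6 libraries was 4. Ifnb1 had 0 counts in every library, which allows a level of up to 0.190 to 0.234 CPM (counts scaled to library size) in the C/D libraries and 0.182 to 0.193 CPM in the Gel/S libraries (3 counts, counting error only). The receptor was well measured. Ifnar1 fell, with 15.1, 13.4 and 13.4 FPKM in C/D and 19.5, 17.8 and 18.2 FPKM in Gel/S (log2 fold change −0.36, SE 0.0849, edgeR adjusted p = 0.00983). It missed the threshold on dropping C/D 2 (adjusted p = 0.0603) or C/D 3 (0.0548). Ifnar2 had 20.4, 21 and 20.4 FPKM in C/D and 22.9, 22.4 and 21.7 FPKM in Gel/S (log2 fold change −0.08, edgeR adjusted p = 0.485).

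Of 17 tested genes of receptor signalling, 1 rose (5.88%) and 5 fell (29.4%), against 13.1% and 13.9% of all genes tested. With 17 genes, these counts cannot be set apart from those shares. Socs3, a feedback inhibitor of cytokine receptors, rose by 0.35 on the log2 scale (SE 0.0839, adjusted p = 0.0105 in edgeR). Ptpn11, the phosphatase SHP2, fell (−0.55, SE 0.136, adjusted p = 0.0130). Socs3 missed the threshold on dropping C/D 2 (edgeR adjusted p = 0.0536) or C/D 3 (0.0574) and on TPM (limma, 0.144). Ptpn11 missed it on dropping C/D 1 (edgeR adjusted p = 0.0566) or C/D 2 (0.0634) and on TPM (limma, 0.0595). The other falls were in Ifnar1 (above), Ifngr2, Jak1 and Irf8. The 5 that fell have listed lengths of 3.77 kb (Ifngr2) to 7.49 kb (Ptpn11). Of all tested genes of 3 kb and over, 17.6% fell. With the length trend removed, Ifngr2 did not pass (edgeR adjusted p = 0.0708), while Ifnar1, Jak1, Irf8 and Ptpn11 did. Dropping a library moved these counts: 0 fell when C/D 2 was dropped, 1 when C/D 1 or C/D 3 was, and 2 when Gel/S 3 was. None rose on dropping C/D 2 or C/D 3, and 2 rose on dropping Gel/S 1 or Gel/S 2. Calls over all 11708 genes, in either direction, moved as well. They were 1812, 1804 and 1960 without C/D 1, C/D 2 or C/D 3, against 3163 with all libraries. Without Gel/S 1, Gel/S 2 or Gel/S 3 they were 3070, 4078 and 1892.

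Of 16 tested genes of interferon induction, 1 rose and 1 fell (6.25% each), against 13.1% and 13.9% of all genes tested. With 16 genes, counts of 1 cannot be set apart from those shares. Tlr4, the receptor for bacterial lipopolysaccharide, rose (log2 fold change 0.36, SE 0.105, edgeR adjusted p = 0.0257), which missed the threshold on dropping C/D 2 (adjusted p = 0.111), C/D 3 (0.0899) or Gel/S 3 (0.106) and in limma on FPKM (0.0888) and TPM (0.314). Ticam2, the adaptor that links Tlr4 to interferon synthesis, fell (log2 fold change −0.54, SE 0.130, edgeR adjusted p = 0.0109). Without Gel/S 1, 3 genes of this list fell. In that setting 3070 of all 11708 genes were called in either direction, against 3163 with all libraries.

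The OAS family makes the signal that activates RNase L, and the set was not tested against it. Of its 8 tested genes 2 rose and 0 fell, against 13.1% and 13.9% of all genes tested, and their median was 0.23 on the log2 scale, against 0.01 over all genes. They were Oas1b (0.81, SE 0.181, edgeR adjusted p = 0.00781) and Oas2 (0.43, SE 0.104, adjusted p = 0.0104), and without C/D 1 the call of Oas2 was lost (adjusted p = 0.0511), leaving 1. On TPM it was lost as well (limma, adjusted p = 0.0512).

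**Figure D5:**
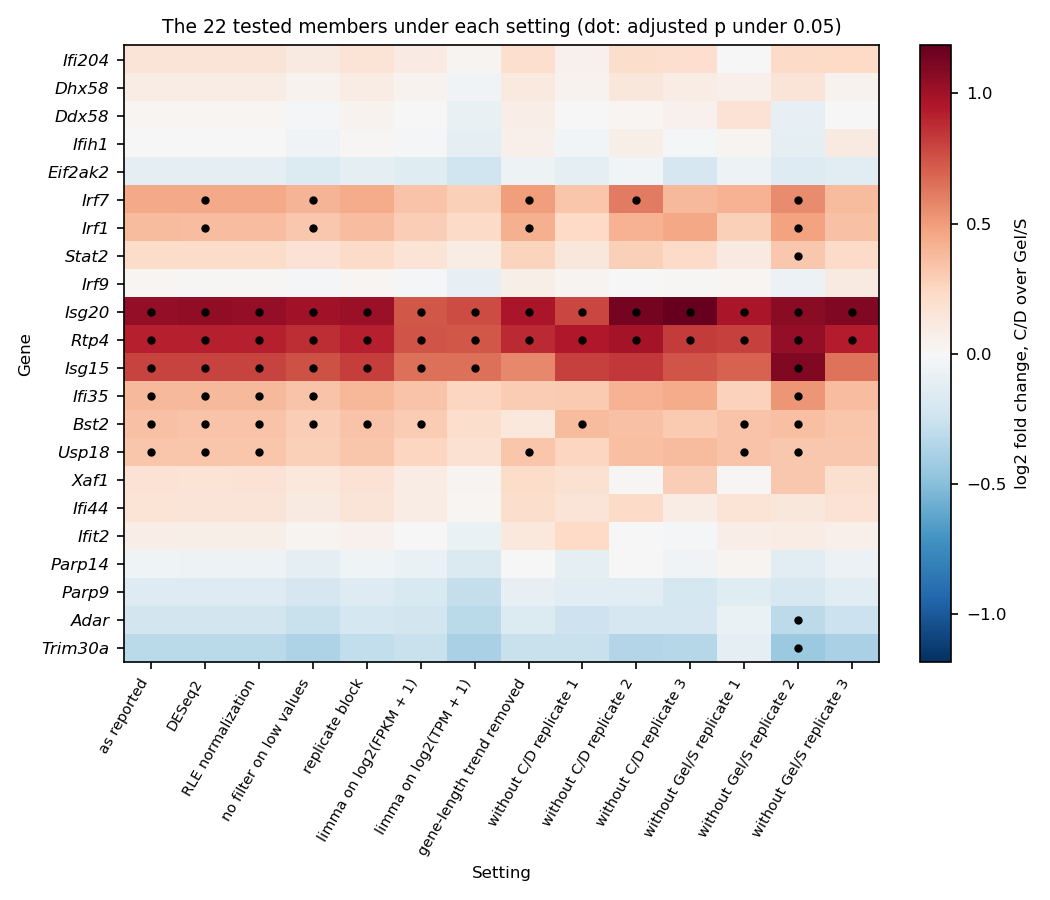
The log2 fold change of C/D over Gel/S (colour) for the 22 tested members (rows) as reported and under 13 alternatives (columns), with a dot where the adjusted p is under 0.05. Isg20 and Rtp4 have a dot in every column, and Isg15, Bst2, Usp18 and Ifi35 in some of them.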

How the data were processed

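RNA of RAW264.7 cells was sequenced in 3 C/D and 3 Gel/S libraries. The deposited table holds raw counts per gene and library, made by the authors without normalization, per the file headers. The authors' FPKM values are scaled by listed gene length and a library total. Their group means (signal, scaled counts), log2 fold changes (Gel/S over C/D), p-values and adjusted p-values are in the deposited table too, by a test that no source here names. The submitters' processing notes name the build GRCm38 (mm10). Aligner, counter, annotation and use of strand: not given here.

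From the counts, 27 date-like symbols were restored and 100 repeated symbols summed. The coordinates of all 34 members equal those in GENCODE M21. Genes with a mean FPKM of at least 1 (11708) were tested with the edgeR 4.0.16 quasi-likelihood test (TMM factors, R 4.3.3), Benjamini-Hochberg adjusted over all of them, threshold 0.05. Positive log2 fold changes are higher in C/D, and the standard error is the fold change over the square root of F. Alternatives were DESeq2 1.42.0, RLE factors, no FPKM limit, a replicate block, limma 3.58.1 on log2(FPKM + 1) and log2(TPM + 1), each library left out, and, chosen after seeing the data, a lowess of span 0.3 on gene length as an offset. Tests were checked on simulated counts. Total counts of 12818831 to 16525699 per library set the precision, and floors cover counting error only. Members that passed are given in every library, others by the smallest p per role, by counts where levels are low, or by range, and wider lists by up to 3 genes that passed, those of smallest adjusted p, plus Ifnb1, Ifnar1 and Ifnar2. 1 other gene that the rule names is not reported here. More members and genes than that rule asks for are named, after their values were seen. The members and lists were chosen with earlier results of these data known.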

Additional observations from a re-analysis of the deposited data

How the results depend on the processing

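Isg20 and Rtp4 passed under all 13 alternatives (log2 fold changes of 0.73 to 1.18 and 0.74 to 1.04), and no alternative turned the direction of any of the 6 risen members. The members risen were 6 as reported, 3 with limma on log2(TPM + 1) and 2 to 9 with 1 library left out, and the members fallen 0 to 2. Effectors risen were 3 on TPM, 3 with the length trend removed and 2 to 6 with libraries left out, effectors fallen 0 to 2, and factors risen 2 with DESeq2, 2 without the limit on low levels, 2 with the length trend removed and 0 to 3 with libraries left out. The members' median log2 fold change was 0.0892 with limma on log2(FPKM + 1), 0.0235 on TPM and 0.0914 to 0.19 with libraries left out. TPM moved the median of all genes to −0.12, so relative to it the members stayed higher. All genes risen were 1020 with limma on FPKM, 633 on TPM and 887 to 1989 with libraries left out, and fallen 876 to 2089. Same-numbered libraries did not deviate together (correlations −0.06 to 0.05 over 3 pairs), and with a replicate block 4 members rose (Usp18, adjusted p = 0.0567, and Ifi35, 0.0744, did not pass in edgeR), 3 genes of receptor signalling fell and 0 of induction rose. Interferon induction genes risen were 0 with limma on FPKM, 0 on TPM and 0 to 1 with libraries left out, and fallen 2 with DESeq2, without the limit, on FPKM and with the length trend removed, 4 on TPM and 1 to 3 with libraries left out. Receptor signalling genes risen were 0 on TPM, 2 with the length trend removed and 0 to 2 with libraries left out, fallen 0 to 7. OAS genes risen were 1 on TPM and 1 to 3 with libraries left out. Other interferon-stimulated genes risen were 7 on FPKM, 6 on TPM and 6 to 17 with libraries left out. Genes near no change turned sign: Ifih1 (−0.0412 without the limit, −0.0202 on FPKM, −0.10 on TPM, −0.11 to 0.11 with libraries left out), Ddx58 (−0.0238, −0.0033, −0.0871, −0.10 to 0.17), Irf9 (−0.0275, −0.0144, −0.10, −0.0695 to 0.11), Dhx58 (−0.0429 on TPM), Ifit2 (−0.0782 on TPM, −0.0276 to 0.24), Parp14 (−0.12 to 0.0346) and Ube2l6 (−0.0505 on TPM). The cause was not tested. Depth limits the 12 members below 1 FPKM and Isg15.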

Other observations

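A wider list of 88 interferon-stimulated genes outside the set, 87 of them in the table and 65 tested, had 11 risen (16.9%) and 5 fallen (7.69%) members in C/D, against 13.1% risen and 13.9% fallen of all genes tested. Its median log2 fold change was 0.12, against 0.01 over all genes. The strongest by adjusted p was Rnf213, a giant ubiquitin ligase of innate immunity, with 20.7, 18.2 and 18.9 FPKM in C/D and 11.5, 10.4 and 10.7 FPKM in Gel/S (log2 fold change 0.87, SE 0.0897, edgeR adjusted p = 0.000130). At 16.9 kb it is a long gene, and it kept its call with the length trend removed (log2 fold change 0.80, adjusted p = 6.66e-05). The Schlafen genes Slfn9 and Slfn2, which restrain growth of lymphocytes or viruses, fell: Slfn9 had 3.35, 4.29 and 4.42 FPKM in C/D and 7.43, 6.96 and 6.41 FPKM in Gel/S (log2 fold change −0.74, edgeR adjusted p = 0.00137), and Slfn2 had 61.0, 55.0 and 59.6 FPKM in C/D and 80.0, 92.3 and 87.5 FPKM in Gel/S (−0.52, 0.00222). The count risen was 6 without C/D 1, 6 without C/D 3, 7 without Gel/S 3 and 17 without Gel/S 2. Calls over all 11708 genes, in either direction, were 1812, 1960, 1892 and 4078 in those settings, against 3163 with all libraries.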
